A study of Rattus norvegicus with 311 samples.

Results

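Transcripts of 10 genes that encode the xenobiotic and lipid nuclear receptors of liver, with the glucocorticoid receptor and a shared coactivator, were followed in cultured rat hepatocytes. The genes were picked by name, for their known roles, with earlier results of these data known. A row of the count table was taken when the name before its probe number was Nr1i2, Nr1i3, Ppara, Ppard, Pparg, Rxra, Rxrb, Nr1h3, Nr3c1 or Ppargc1a. This gave 16 probes of 22253, for 10 symbols of 21143. Pparg had 5 probes, Rxrb had 3, and each other gene had 1.

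The cells were primary hepatocytes of male Sprague Dawley rats, obtained from a supplier and plated on collagen. They were cultured alone (monoculture, 156 libraries) or together with purified non-parenchymal liver cells (co-culture, 155 libraries), and collected on day 1, 3 or 7 after plating. For the last day before collection the wells received vehicle, whose solvent the labels do not name, or 1 of 4 compounds at 3 doses: phenobarbital at 0.1, 1 or 10 mM, GW7647 at 0.01, 0.1 or 1 µM, gemfibrozil at 10, 100 or 1000 µM, or ketoconazole at 1, 10 or 30 µM. Culture, compound, dose and day made 78 groups, 65 of them with 4 libraries, 7 with 3 and 6 with 5, and 24 libraries were vehicle wells. The rats' age is not in the labels, and the labels call the wells biological replicates without naming separate animals, so each p-value reflects library-to-library spread that may be only technical.

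Nuclear receptors are transcription factors that small lipophilic molecules switch on. In hepatocytes the pregnane X receptor PXR (Nr1i2) and the constitutive androstane receptor CAR (Nr1i3) sense drugs and raise cytochrome P450 and conjugating enzymes, and phenobarbital is the classical activator of CAR. The peroxisome proliferator-activated receptors PPAR-alpha (Ppara), PPAR-delta (Ppard) and PPAR-gamma (Pparg) sense fatty acids. PPAR-alpha drives fatty acid oxidation in liver and is the target of fibrates such as gemfibrozil and of the agonist GW7647. The liver X receptor LXR-alpha (Nr1h3) senses oxysterols, and these receptors bind DNA mainly as partners of a retinoid X receptor, RXR-alpha (Rxra) or RXR-beta (Rxrb). The glucocorticoid receptor (Nr3c1) acts without RXR, and PGC-1alpha (Ppargc1a) is a coactivator of several of them. Ketoconazole, an antifungal azole, is known to inhibit P450 enzymes.

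The promoters of the 4 genes with a single promoter entry that passed a test below, Nr1i2, Nr1i3, Rxra and Rxrb, are shown because their levels moved with time or compound. Each is the 250 bases before the annotated gene start from RefSeq on build GRCr8, written in the direction of the gene. The windows are chr11:75965467-75965716 on the plus strand for Nr1i2, chr13:86165170-86165419 on the plus strand for Nr1i3, chr3:31387642-31387891 on the plus strand for Rxra and chr20:4824660-4824909 on the minus strand for Rxrb. Capitals mark CCAAT or GGGCGG on either strand.
Nr1i3: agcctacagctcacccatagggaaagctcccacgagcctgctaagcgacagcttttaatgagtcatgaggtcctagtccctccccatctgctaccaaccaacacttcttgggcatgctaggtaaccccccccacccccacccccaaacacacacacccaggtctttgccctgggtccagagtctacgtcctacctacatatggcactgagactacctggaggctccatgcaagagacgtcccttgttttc
Nr1i2: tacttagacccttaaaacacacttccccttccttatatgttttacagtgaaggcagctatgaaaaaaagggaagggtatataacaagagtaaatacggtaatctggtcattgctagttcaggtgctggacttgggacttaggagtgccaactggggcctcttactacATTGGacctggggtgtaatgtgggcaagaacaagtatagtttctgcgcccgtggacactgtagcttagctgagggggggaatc
Rxra: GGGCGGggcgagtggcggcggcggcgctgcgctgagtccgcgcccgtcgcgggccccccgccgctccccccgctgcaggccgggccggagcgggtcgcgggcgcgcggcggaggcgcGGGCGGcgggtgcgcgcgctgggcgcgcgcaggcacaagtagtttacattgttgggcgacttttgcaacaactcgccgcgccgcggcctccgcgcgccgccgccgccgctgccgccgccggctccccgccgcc
Rxrb: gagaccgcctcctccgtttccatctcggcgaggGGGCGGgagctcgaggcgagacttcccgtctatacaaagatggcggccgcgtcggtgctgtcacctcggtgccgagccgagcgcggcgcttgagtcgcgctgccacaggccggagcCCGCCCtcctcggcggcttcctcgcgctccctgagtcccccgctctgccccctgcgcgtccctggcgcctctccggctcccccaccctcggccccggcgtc
The windows of the drug-sensing receptors were near the middle of all promoters in CG dinucleotides, with 4 for Nr1i3 (percentile 44.7) and 3 for Nr1i2 (percentile 37.4), beside a median of 5 over 33469 rat promoters of the same length. Those of the RXR genes were rich, with 52 for Rxra (above nearly all promoters) and 34 for Rxrb (percentile 97.4). Of all promoters 30.5% held GGGCGG on either strand, as did the windows of both RXR genes. The motif CCAAT stood in 34% of promoters and in the Nr1i2 window, and the Nr1i3 window held neither motif. The receptor core motif AGGTCA was in 14.1% of promoters on either strand and the box TATAAA in 12.9%, and the 11 windows of the 9 genes with an entry held neither. A match is a string of letters and not a shown binding site.

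RNA was measured by TempO-Seq, which counts pairs of detector oligonucleotides ligated on their target transcript. Libraries held 412414 to 12272575 counts with a median of 6054414, and 5846 to 15538 probes with a count. Levels below are CPM, counts relative to the scaled library total, and since probes differ in efficiency they compare samples for 1 probe and not genes with each other. A monoculture well with ketoconazole at 30 µM on day 7, plate 1, stood apart with 412414 counts. There the Rxra level was 5.61 CPM and the Ppard level 43.0 CPM. Replicates are named by plate (1, 3, 5, 7 or 9), after the number before the well-like code that ends each library's description. The descriptions do not call this number a plate, so the name is a reading of the code. The 9 wells of plate 9, all of day 3 with gemfibrozil or GW7647, differed from the 45 wells of the same groups on other plates: median Ppara was 3.35 against 33.8 CPM, and median Nr1h3 was 9.71 against 1.41 CPM.

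Hepatocyte markers (17 of 18 listed genes had a probe) were high on day 1 and lower on day 7, so the labelled cell type was present. Their summed level in vehicle wells was 42400 to 99300 CPM (median 58200) on day 1, 34900 to 71400 (48400) on day 3 and 4330 to 21000 (15100) on day 7. Stellate and fibroblast markers were higher on the later days, with medians of 264, 683 and 4570 CPM and ranges of 92.6 to 417, 285 to 861 and 1400 to 21300. Macrophage markers had medians of 148, 252 and 850 CPM and cholangiocyte markers 47.2, 882 and 1250 CPM. These non-parenchymal markers were also detected in monoculture. Stellate medians on days 1, 3 and 7 were 266, 759 and 3070 CPM in monoculture and 215, 598 and 6850 CPM in co-culture. Macrophage medians were 129, 155 and 549 CPM in monoculture and 196, 333 and 1190 CPM in co-culture. Of the other cell types' markers, Col1a1, Des, Lum and Rgs5 (stellate), Adgre1 (macrophage), Stab2 and Vwf (endothelial) and Krt7 and Cftr (cholangiocyte) had a median of 0 over all libraries. Others of the same lists were detected, such as Tagln (median 279 CPM), Col3a1 (24.2), C1qc (46.5), Cd163 (22.5), Tek (11.6) and Sox9 (244). The next highest cholangiocyte probe, for Prom1, had a median of 6.22 CPM, and the next highest stellate probe, for Reln, 52.6 CPM. The cholangiocyte and stellate sums, here and with each compound below, may thus largely follow Sox9 and Tagln rather than the cell type. In such bulk samples fewer cells of a type and less RNA per cell cannot be told apart, and the part of cell composition in the receptor levels below was not tested.

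Transcripts for 9 of the 10 genes were measurable. Rxra had the highest count of the 16 probes, present in 311 of 311 libraries with a median of 254 CPM. Nr1i2 was also present in every library (median 75.1 CPM), and Ppara in 310 (31.7 CPM). The best-covered Rxrb probe, 38711, had a median of 18.6 CPM, Nr3c1 7.65 CPM, Ppard 3.81 CPM, the best-covered Pparg probe, 9538, 2.03 CPM and Nr1h3 1.69 CPM. Nr1i3 had a count in 189 libraries and a median of 0.397 CPM. The coactivator Ppargc1a was near absent: its probe gathered 38 counts in 19 libraries, at most 5.58 CPM in a co-culture well with 10 µM ketoconazole on day 7. The Pparg probes 9537 and 9539 gathered 87 counts in 39 libraries and 53 counts in 21 libraries. These 3 probes did not pass the filter on low counts, and 13 probes passed in the fit of each day (of 12504, 13439 and 13707 probes on days 1, 3 and 7) and 11 in the fit of vehicle wells over time (of 11823).

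The probes of 1 gene did not vary together in all cases. Over the 78 group means the Rxrb probes 38711 and 36306 had a Spearman correlation of 0.482, whereas 36306 and 51213 had -0.325. The Pparg probes 9538 and 32510 had 0.593, and 9538 and 81648 had 0.338. The groups share plates and library depth, so these values are a description. Whether the probes read different transcripts cannot be told from the table, and each probe is given on its own.

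In vehicle wells the CAR transcript Nr1i3 was low on day 1, undetected on day 3 and present again on day 7 in part of the wells. On day 1 the monoculture wells of plates 1, 3, 5 and 7 had 1.67, 1.29, 2.55 and 0.491 CPM, and the co-culture wells 1.62, 1.73, 1.55 and 1.14 CPM. On day 3 all 8 wells had no count. On day 7 the same plates had 6.43, 3.74, 0.166 and 0 CPM in monoculture and 9.09, 3.57, 0.174 and 0 CPM in co-culture. Every day 1 well was thus above every day 3 well, and on day 7 the wells of plates 1 and 3 were above all day 1 wells while those of plates 5 and 7 were below them. Set against 3 counts per group as the floor, which covers counting error alone, day 1 was at least 8.52-fold higher than day 3 in monoculture (4.97-fold without plate 5) and at least 6.86-fold in co-culture. Day 7 was at least 14.6-fold higher than day 3 in monoculture and at least 13.6-fold in co-culture. These limits rest largely on plate 1, without which they were 6.16-fold and 3.5-fold, and in monoculture the limit was 9.17-fold without plate 3.

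The rise of Nr1i3 from day 3 to day 7 passed the test in both cultures (edgeR quasi-likelihood test, adjusted p = 0.0377 in monoculture and 0.0345 in co-culture), while the fall from day 1 to day 3 did not (0.149 and 0.103). In the fit with a replicate block by plate the fall passed in co-culture (0.0457). The rise was lost without plate 1 (0.167 and 0.196), without plate 3 (0.132 and 0.131) and without plate 5 (0.108 and 0.0669). With the number of detected probes as a covariate it was lost as well (0.664 and 0.882). Over 10 other settings the fitted log2 difference itself ran from 3.73 to 7.24 in monoculture and from 0.59 to 7.56 in co-culture. In all wells together Nr1i3 had no count in 18 of 104 libraries on day 1, 73 of 104 on day 3 and 31 of 103 on day 7. Its group mean on the log2 CPM scale was lower on day 3 than on day 1 in 26 of 26 conditions of culture, compound and dose, and higher on day 7 than on day 3 in 26 of 26. The conditions share plates.

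The PXR transcript Nr1i2 was lowest at the start in most vehicle wells. In monoculture vehicle wells of plates 1, 3, 5 and 7 it measured 47.8, 47.4, 64.7 and 26.4 CPM on day 1. Day 3 gave 110, 91.0, 63.8 and 75.9 CPM, and day 7 gave 167, 171, 39.3 and 70.1 CPM. In co-culture it measured 52.0, 62.2, 59.7 and 42.7 CPM, then 174, 97.3, 106 and 102 CPM, then 164, 113, 40.6 and 60.9 CPM. Day 3 wells were above day 1 wells in 7 of 8 pairs of one plate and culture. On day 7 plates 1 and 3 stayed high while plate 5 lay below its day 1 level in both cultures, so days 1 and 7 overlapped.

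The log2 difference of Nr1i2 between day 7 and day 1 was 1.37 ± 0.43 (SE, n = 4 and 4) in monoculture (edgeR, adjusted p = 0.026) and 0.88 ± 0.43 in co-culture (0.143). The monoculture call was lost without plate 1 (1.14, 0.107), plate 3 (1.09, 0.176) or plate 7 (1.24, 0.0887). From day 1 to day 3 the difference was 0.94 in monoculture (adjusted p = 0.258) and 1.23 in co-culture (0.0734), and the second was 1.19 (0.0283) when plate was a block. Over the 26 conditions Nr1i2 was higher on day 7 than on day 1 in 26, by a median of 0.76 (0.26 to 1.57) on the log2 CPM scale, and higher on day 3 than on day 1 in 23.

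Among the 11 member probes tested over time, 1 was called between days 1 and 7 in monoculture and 1 between days 3 and 7 in each culture. No member was called between days 1 and 3 in either culture, where 2 had an unadjusted p under 0.05 in each culture and DESeq2 called 1 (Nr1i3 in co-culture, adjusted p = 0.0446), or between days 1 and 7 in co-culture, where 1 had such a p and DESeq2 called Rxrb probe 38711 (0.0303). Of all probes tested, 2.52% were called between days 1 and 3 in monoculture and 9.06% in co-culture. Between days 3 and 7 the shares were 15.7% and 18.5%, and between days 1 and 7 they were 22.4% and 22.8%. With 11 member probes a single call is a share of 9.09%, so these counts are too few to set the members apart from all probes.

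**Figure D1:**
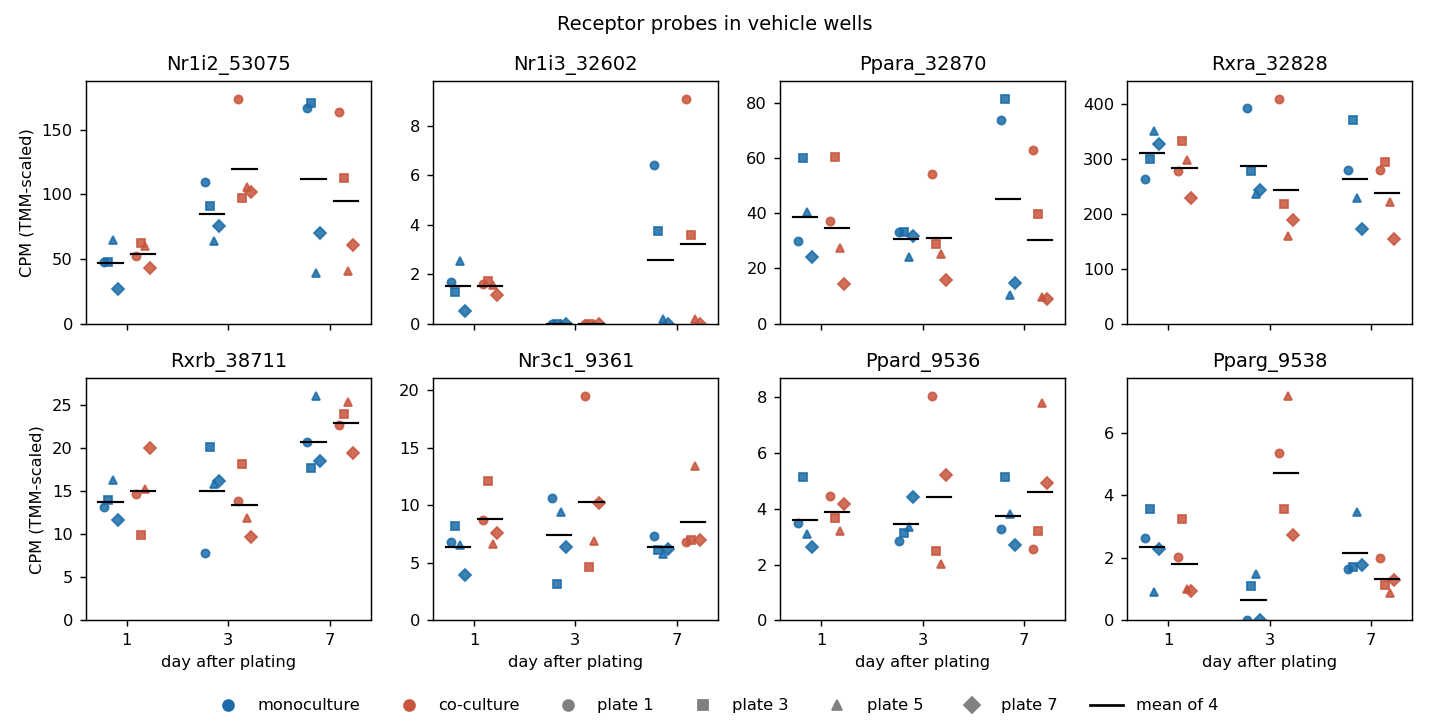
Level of 8 receptor probes (y axis, CPM on scaled libraries) in vehicle wells against the day after plating (x axis), with 1 point per well, colour for culture, shape for plate and a line at the mean of 4 wells. Nr1i3 was at 0 in all 8 wells of day 3, and on day 7 plates 1 and 3 lay above plates 5 and 7 for Nr1i2, Nr1i3 and Ppara.

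The PPAR-alpha transcript Ppara showed no common direction with time. Monoculture vehicle wells of plates 1, 3, 5 and 7 had 29.8, 60.0, 40.5 and 24.2 CPM on day 1. Day 3 gave 33.1, 33.2, 24.2 and 31.7 CPM, and day 7 gave 73.7, 81.3, 10.3 and 14.6 CPM. Co-culture wells had 37.0, 60.3, 27.2 and 14.3 CPM, then 54.0, 28.8, 25.0 and 15.7 CPM, then 62.8, 39.7, 9.72 and 8.96 CPM. The 4 day 7 wells of plates 5 and 7 were among the 5 lowest of the 24 vehicle wells, and the days overlapped. Ppara was higher on day 3 than on day 1 in 12 of 26 conditions and higher on day 7 than on day 1 in 9 of 26.

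The RXR-alpha transcript Rxra passed no test over time. In vehicle it had means of 310 ± 37.5, 287 ± 72.5 and 263 ± 83.7 CPM (SD, n = 4) on days 1, 3 and 7 in monoculture, and 284 ± 43.6, 244 ± 113 and 237 ± 63.7 CPM in co-culture. Single wells ran from 154 CPM (co-culture, day 7, plate 7) to 409 CPM (co-culture, day 3, plate 1), and the days overlapped. Its log2 differences between days lay between -0.20 and -0.03. Over all conditions it was lower on day 3 than on day 1 in 22 of 26, with a median of -0.32.

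The RXR-beta probe 38711 measured 13.1, 13.9, 16.2 and 11.6 CPM in monoculture vehicle wells of day 1. The same plates gave 20.6, 17.6, 26 and 18.4 CPM on day 7, with no overlap between those days. Co-culture wells of day 1 had 14.6, 9.94, 15.2 and 20 CPM. Those of day 7 had 22.6, 23.9, 25.3 and 19.4 CPM, which overlapped through 1 well. The day 7 minus day 1 difference was 0.69 ± 0.30 and 0.66 ± 0.30 on the log2 scale (adjusted p = 0.105 and 0.116). The Rxrb probe 36306 differed between days 3 and 7 in co-culture by 1.96 ± 0.84 (adjusted p = 0.101), and by 2.21 (0.0477) when plate was a block. The third probe, 51213, went the other way. It was lower on day 7 than on day 3 in 8 of 8 pairs of one plate and culture. In the same pairs 38711 and 36306 were each higher in 7 and lower in 1. Means of 51213 on days 3 and 7 were 5.89 and 2.61 CPM in monoculture and 5.6 and 2.96 CPM in co-culture, and edgeR called it between no days.

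The remaining members passed no test over time in vehicle. Nr3c1 ran from 3.12 CPM (monoculture, day 3, plate 3) to 19.5 CPM (co-culture, day 3, plate 1), and Ppard from 2.01 to 8.05 CPM, both ends in co-culture on day 3. Nr1h3 ran from 0 to 6.38 CPM and had no count in 3 of 4 co-culture wells of day 3. None of the 3 was called between any days.

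Pparg probe 9538 had 0, 1.11, 1.47 and 0 CPM in monoculture vehicle wells of day 3 and 5.36, 3.57, 7.19 and 2.74 CPM in co-culture wells of the same plates. These wells did not overlap. The log2 difference was 2.77 ± 1.15, with an unadjusted p of 0.0184 and an adjusted p of 1 (edgeR), and on days 1 and 7 the cultures overlapped.

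No receptor transcript differed between co-culture and monoculture past the threshold. With all 13 conditions or vehicle alone, on 3 days, 0 of 78 pairs of member probe and comparison were called by edgeR, 1 had an unadjusted p under 0.05 (the Pparg probe above), and DESeq2 called 0. Over all conditions 0.288%, 0.126% and 0.117% of all probes were called on days 1, 3 and 7, and 0% in vehicle alone. Median Nr1i2 was 51.4 CPM in monoculture and 55.0 in co-culture on day 1, 86.7 and 90.1 on day 3, and 91.8 and 90.7 on day 7. Rxra had 294 and 268, 227 and 203, and 252 and 247 CPM. A p that misses the threshold does not show that the cultures were alike.

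**Figure D2:**
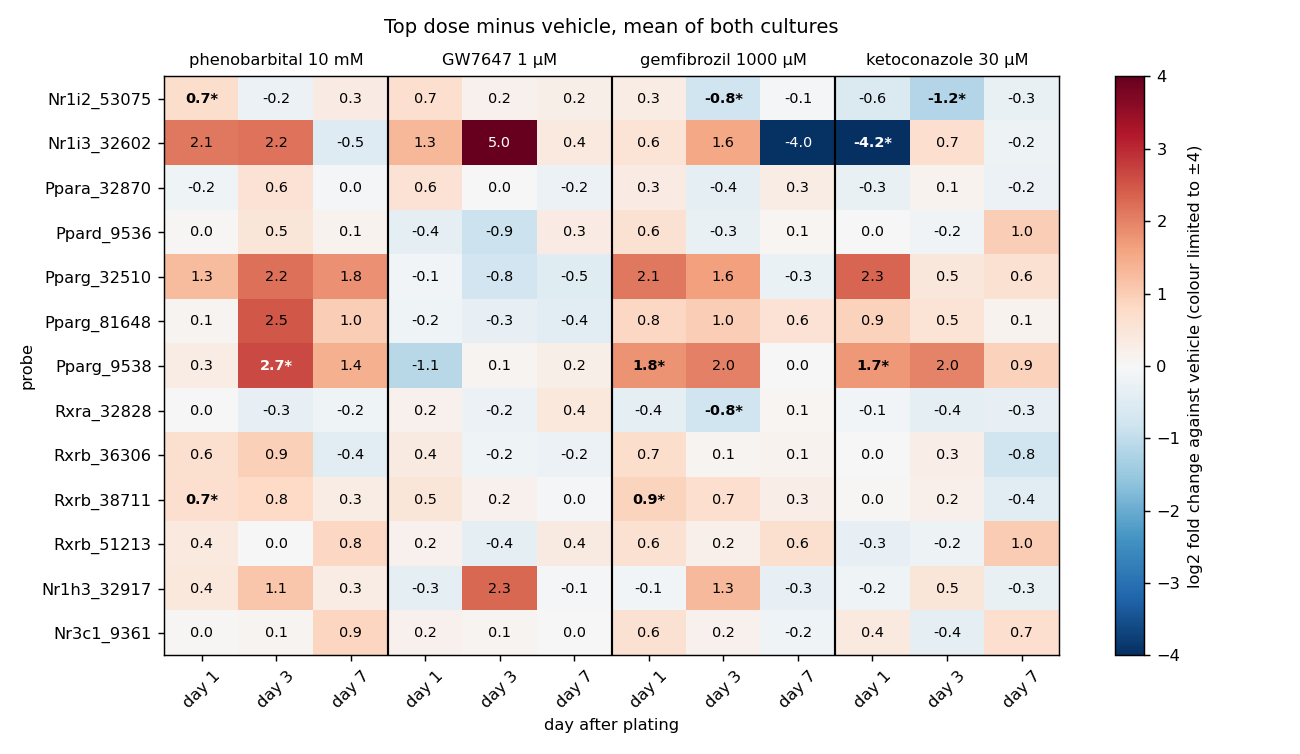
Log2 fold change of 13 receptor probes (rows) at the top dose against vehicle, as the mean of both cultures, by compound and day (columns), with colour limited to ±4 and asterisks at adjusted p under 0.05 (edgeR). The 10 asterisks lie on days 1 and 3 and in phenobarbital, gemfibrozil and ketoconazole, and values of Nr1i3 against wells without counts are fitted values and no bound.

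At the top doses 10 of 156 pairs of member probe and comparison were called, 6 higher and 4 lower, in 5 genes: Nr1i2, Nr1i3, Pparg, Rxra and Rxrb. Comparisons of 1 day share the vehicle libraries. The calls fell on days 1 and 3. Of the 52 pairs on day 7 none was called by edgeR, 6 had an unadjusted p under 0.05, and DESeq2 called 1 (Pparg probe 9538 with phenobarbital, adjusted p = 0.0424).

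Both drug-sensing receptors were called lower with ketoconazole, Nr1i3 on day 1 and Nr1i2 on day 3. On day 1 the CAR transcript Nr1i3 fell to no count in 6 of 8 wells at 30 µM. The other 2, both of plate 5, had 0.354 CPM in co-culture and 0.121 CPM in monoculture, against 0.491 to 2.55 CPM (median 1.59) in vehicle. All 8 treated wells lay below all 8 vehicle wells. The summed vehicle level was 22.4 times that with ketoconazole, with a 95% counting interval of 7.37 to 111 (exact, counting error alone). Without plate 5 no treated well had a count, and vehicle was at least 13.4-fold higher. The fall was called by edgeR (adjusted p = 0.00327) and in 10 of 10 other settings that could test it (0.000656 to 0.0366). The medians by dose were 1.59, 1.1, 0.286 and 0 CPM from vehicle to 30 µM, and no lower dose was called.

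On day 3, when Nr1i3 was at 0 in vehicle too, the PXR transcript Nr1i2 fell. At 30 µM ketoconazole the co-culture wells of plates 1, 3, 5 and 7 had 44.5, 35.4, 33.8 and 50.7 CPM and the monoculture wells 62.4, 57.0, 29.1 and 42.5 CPM, all below the lowest vehicle well (63.8 CPM; vehicle median 99.4 CPM). On the log2 scale the change was -1.19 ± 0.25 (SE, n = 8 and 8, edgeR adjusted p = 0.00172). It was lower than the vehicle of its own plate in 8 of 8 pairs and was called in 12 of 12 other settings (4.98e-06 to 0.0421). The medians by dose were 99.4, 80.3, 62.4 and 43.5 CPM from vehicle to 30 µM. On day 1 Nr1i2 was also lower in 8 of 8 pairs, by -0.58 ± 0.26 (adjusted p = 0.108), and by -0.55 (0.0174) when plate was a block. On day 7 the difference was -0.28 ± 0.40 (0.786).

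Pparg probe 9538 rose with ketoconazole on day 1. Its wells had 8.21, 4.32, 7.78 and 10.4 CPM in co-culture and 4.84, 7.36, 6.64 and 5.25 CPM in monoculture, all above the highest vehicle well (3.58 CPM, median 2.16). The log2 difference was 1.73 ± 0.63 (edgeR adjusted p = 0.0452). The call was lost without plate 1 (1.80, 0.0735), plate 3 (2.09, 0.0577), plate 5 (1.46, 0.334) or plate 7 (1.56, 0.114). On day 3 it was higher in 8 of 8 pairs, with 2.81 to 12.7 CPM (median 7.1) against 0 to 7.19 (2.1), a difference of 1.97 that missed the threshold and was 2.15 (0.0278) with a replicate block by plate. The lower doses had medians of 2.2 and 2.19 CPM on day 1, near vehicle. The other tested Pparg probes, 32510 and 81648, were not called by edgeR on day 1. Against the vehicle well of its plate, 32510 was higher in 6 and lower in 1 of 8 pairs, and 81648 higher in 4 and lower in 3.

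With ketoconazole the member calls were thus 2 of 13 on day 1, 1 of 13 on day 3 and 0 of 13 on day 7, where 3 had an unadjusted p under 0.05 and DESeq2 called 0. Of all probes 17.3%, 3.18% and 0.518% were called. The median log2 difference of the 13 probes was -0.03, 0.20 and -0.22, beside 0.06, 0.17 and -0.12 over all probes. On day 7 the smallest p-values were those of Ppard (0.98 ± 0.38, adjusted p = 0.2), which had 43.0 CPM in the well of 412414 counts and 1.5 to 11.2 CPM in the other 7, and of Rxrb probe 51213 (1.03 ± 0.47, 0.269). Hepatocyte markers were 44900 CPM at the median on day 1 (vehicle 58200) and 27900 on day 3 (vehicle 48400). Stellate markers were 67.9 and 433 CPM against 264 and 683, cholangiocyte markers 78.4 and 488 against 47.2 and 882, and macrophage markers 130 and 96.3 against 148 and 252. Their part in the receptor changes was not tested.

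**Figure D3:**
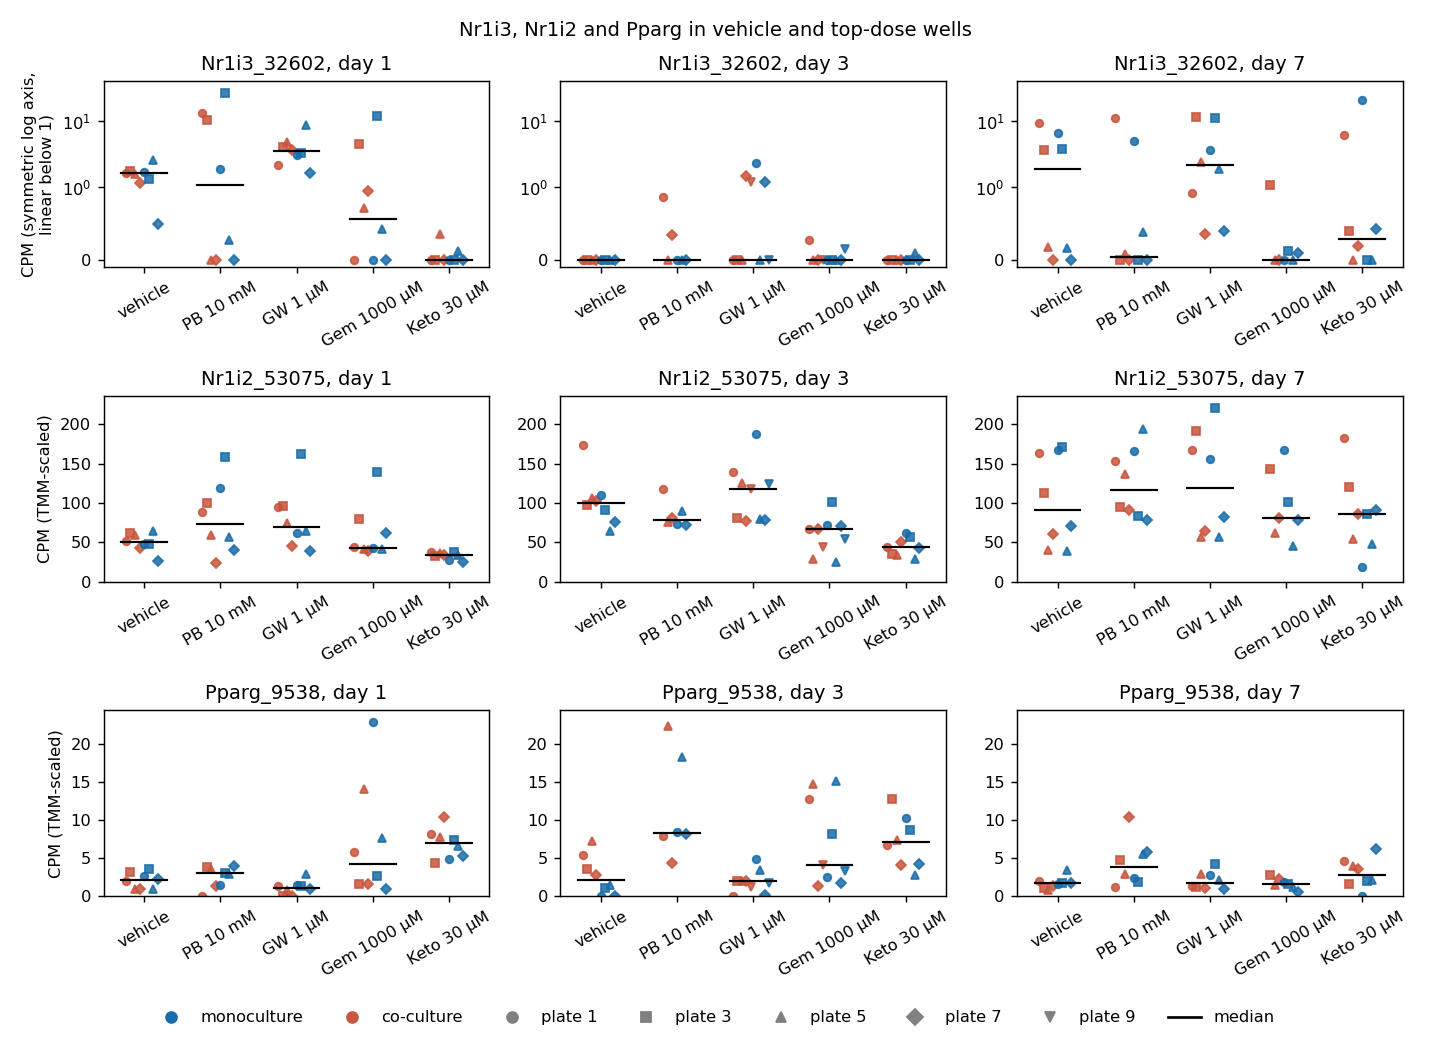
Level of Nr1i3, Nr1i2 and Pparg probe 9538 (y axis, CPM, on a symmetric log axis for Nr1i3) in each vehicle and top-dose well on days 1, 3 and 7 (PB phenobarbital, GW GW7647, Gem gemfibrozil, Keto ketoconazole), with 1 point per well and a line at the median. All ketoconazole wells lay outside the vehicle range for Nr1i3 and Pparg on day 1 and for Nr1i2 on day 3.

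With gemfibrozil 1 of the 3 Rxrb probes was called higher on day 1, and Rxra was called lower on day 3. On day 1 the Rxrb probe 38711 rose at 1000 µM, with 21.9, 9.79, 53.9 and 23.0 CPM in co-culture (plates 1, 3, 5 and 7) and 21.6, 13.1, 47.5 and 18.9 CPM in monoculture, against 9.94 to 20 (median 14.2) in vehicle. Plate 5 was highest in both cultures and plate 3 lay within the vehicle range or below it. On the log2 scale the change was 0.90 ± 0.24 (edgeR adjusted p = 0.00502), and without plate 5 it was 0.39 (0.393). On day 3 the same probe had 12.3 to 34.9 CPM (median 20.8) against 7.75 to 20.1 (14.8), a difference that missed the threshold and was 0.82 (0.0344) with a replicate block by plate. The other Rxrb probes were not called on day 1. Against the vehicle well of its plate, 36306 was higher in 7 and lower in 1 of 8 pairs, and 51213 higher in 3 and lower in 5.

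The Rxra transcript fell with 1000 µM gemfibrozil on day 3. The co-culture wells of plates 1, 9, 5 and 7 had 180, 89.8, 111 and 141 CPM and the monoculture wells of plates 1, 3, 9, 5 and 7 had 199, 263, 52.1, 138 and 200 CPM, against 160 to 409 (median 240) in vehicle. Plate 9 held no vehicle well, and its Rxra was low at each dose: its 9 wells had 52.1 to 160 CPM (median 140) against a median of 207 CPM in the same groups on other plates. Of 9 treated wells 5 were below all vehicle wells. The log2 difference was -0.81 ± 0.27 (edgeR adjusted p = 0.0269), lower in 7 of 7 pairs of one plate and culture. The call was lost without plate 1 (-0.54, 0.118), plate 5 (-0.70, 0.135), plate 7 (-0.76, 0.082) or plate 9 (-0.64, 0.11).

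Nr1i2 fell beside it on day 3. It measured 66.3, 43.5, 28.2 and 66.9 CPM in co-culture (plates 1, 9, 5 and 7) and 72.1, 101, 54.2, 24.4 and 70.2 CPM in monoculture (plates 1, 3, 9, 5 and 7), against 63.8 to 174 CPM (median 99.4). Both wells of plate 5 and both of plate 9 lay below the vehicle range, and the other 5 were inside it. On the log2 scale the change was -0.80 ± 0.24 (edgeR adjusted p = 0.0136), and it was lost without plate 1 (-0.59, 0.0766), plate 5 (-0.53, 0.166) or plate 9 (-0.75, 0.0574). Gemfibrozil and ketoconazole were set against the same vehicle wells.

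Pparg probe 9538 rose with gemfibrozil on day 1, with 5.76, 1.63, 14 and 1.65 CPM in co-culture and 22.8, 2.62, 7.67 and 0.939 CPM in monoculture against 0.911 to 3.58 (median 2.16) in vehicle. The wells of plates 1 and 5 were above all vehicle wells and those of plates 3 and 7 within their range. The log2 difference was 1.79 ± 0.63 (edgeR adjusted p = 0.0379), and 1.23 (0.234) without plate 1 or 1.09 (0.463) without plate 5. On day 3 it was 1.35 to 15.1 CPM (median 4.15) and was called with plate as a block alone (2.20, 0.0168). The Pparg probes 32510 and 81648 were not called by edgeR on day 1. Against the vehicle well of its plate, 32510 was higher in 6 and lower in 1 of 8 pairs, and 81648 higher in 6 and lower in 2.

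Gemfibrozil thus gave 2 member calls of 13 on day 1, 2 of 13 on day 3 and 0 of 13 on day 7, where 1 had an unadjusted p under 0.05 and DESeq2 called 0, beside 17.4%, 20.2% and 0% of all probes. The median log2 difference of the 13 probes was 0.61, 0.20 and 0.07, against 0.10, 0.27 and -0.02 over all probes. On day 7 the smallest p-values were those of Nr1i3, which had 0 to 1.06 CPM (median 0) against 0 to 9.09 (1.87) in vehicle (adjusted p = 1), and of Rxrb probe 51213 (0.63 ± 0.48, adjusted p = 1). Median hepatocyte markers were 25800 CPM on day 1 and 21300 on day 3, against 58200 and 48400 in vehicle. Stellate markers were 69.3 and 291 CPM against 264 and 683, cholangiocyte markers 12.1 and 37.6 against 47.2 and 882, and macrophage markers 121 and 101 against 148 and 252. Their part was not tested.

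The PXR transcript was called higher with phenobarbital on day 1. At 10 mM Nr1i2 measured 87.9, 99.7, 59.1 and 24.0 CPM in co-culture and 119, 158, 56.5 and 40.3 CPM in monoculture (plates 1, 3, 5 and 7), against 26.4 to 64.7 (median 49.9) in vehicle. Plates 1 and 3 were above every vehicle well and plates 5 and 7 were not, and of 8 pairs of one plate and culture 5 were higher and 3 lower. On the log2 scale the change was 0.69 ± 0.26 (edgeR adjusted p = 0.0493), and 0.51 (0.288) without plate 1, 0.42 (0.289) without plate 3 and 0.93 (0.0726) without plate 5.

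The CAR transcript also differed between plates under phenobarbital. Nr1i3 had 13, 10.3, 0 and 0 CPM in co-culture and 1.84, 26, 0.268 and 0 CPM in monoculture, against 0.491 to 2.55 CPM in vehicle. Of 8 wells 3 were above and 4 below all vehicle wells. The difference missed the threshold (adjusted p = 0.0597) and the DESeq2 Wald test called it (0.0265). On day 3 it had a count in 2 of 6 phenobarbital wells and in none of the vehicle wells.

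The Rxrb probe 38711 rose with phenobarbital on day 1, from 9.94 to 20 CPM (median 14.2) in vehicle to 18.7, 17.1, 38.5 and 25.0 CPM in co-culture and 20.1, 15.9, 25.0 and 20 CPM in monoculture. It was above the vehicle well of its plate in 8 of 8 pairs, with 5 wells above all vehicle wells. The log2 difference was 0.68 ± 0.23 (edgeR adjusted p = 0.0351). The call was lost without plate 1 (0.69, 0.0784), plate 3 (0.72, 0.05), plate 5 (0.54, 0.219) or plate 7 (0.72, 0.134). The other Rxrb probes, 36306 and 51213, were not called on day 1, and each was higher in 6 and lower in 2 of 8 pairs.

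Pparg probe 9538 rose with phenobarbital on day 3, with 7.84, 22.3 and 4.38 CPM in co-culture and 8.45, 18.2 and 8.1 CPM in monoculture (plates 1, 5 and 7) against 0 to 7.19 CPM (median 2.1). Only the co-culture well of plate 7 lay within the vehicle range. On the log2 scale the change was 2.66 ± 0.82 (edgeR adjusted p = 0.0224), and it missed the threshold without plate 1 (2.90, 0.0563), plate 5 (2.69, 0.126) or plate 7 (2.83, 0.0628). The median at 1 mM was 0.247 CPM, below that of vehicle. The Pparg probes 32510 and 81648 were not called by edgeR on day 3. Against the vehicle well of its plate, 32510 was higher in 4 and lower in 1 of 6 pairs, and 81648 higher in 6 and lower in 0.

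Phenobarbital gave 2 member calls of 13 on day 1, 1 of 13 on day 3 and 0 of 13 on day 7, where 2 had an unadjusted p under 0.05 and DESeq2 called 1, beside 17%, 12.7% and 6.09% of all probes. Over the 13 probes the median log2 difference was 0.39, 0.79 and 0.30, against 0.08, 0.18 and 0.01 over all probes. On day 7 Nr3c1 measured 13.3, 9.94, 10.0 and 16.9 CPM in co-culture and 14, 13.3, 13 and 11.9 CPM in monoculture against 5.8 to 13.4 (median 6.88), a log2 difference of 0.85 ± 0.32 (adjusted p = 0.0931), and Pparg probe 9538 differed by 1.42 ± 0.57 (0.124). The 33 monoculture phenobarbital wells carry ketoconazole as compound label and were grouped by their description, and phenobarbital doses, labelled both in mM and in µM, were read as mM. In co-culture alone 0 member probes were called. Hepatocyte markers had medians of 32200 and 25900 CPM on days 1 and 3, against 58200 and 48400 in vehicle. Stellate markers had 44.2 and 229 CPM against 264 and 683, cholangiocyte markers 11.5 and 33.2 against 47.2 and 882, and macrophage markers 83.7 and 60.2 against 148 and 252. Their part was not tested.

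GW7647 changed none of the receptors past the threshold. Of 39 pairs none was called by edgeR, 3 had an unadjusted p under 0.05, and DESeq2 called 0. Of all probes 0.352%, 0.29% and 0.0219% were called on days 1, 3 and 7. The members' median log2 difference was 0.17, 0.02 and -0.02, against 0.02, 0.09 and -0.03 over all probes. Ppara itself had 29.8 to 124 CPM (median 46.4) at 1 µM on day 1 against 14.3 to 60.3 (33.4) in vehicle. On day 3 it had 2.02 to 67.1 (27.7) against 15.7 to 54.0 (30.3), and on day 7 17.4 to 49.9 (31.7) against 8.96 to 81.3 (27.2). The day 3 values include the wells of plate 9, which held no vehicle well and was low in Ppara in each of its groups. These wells had 2.02 CPM in monoculture and 4.08 CPM in co-culture. Against the vehicle well of its plate, Ppara on day 3 was higher in 5 and lower in 2 of 7 pairs. The log2 differences of Ppara were 0.58 ± 0.43, 0.02 ± 0.51 and -0.23 ± 0.55, and all groups overlapped.

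Taken by day, the smallest p-values with GW7647 on day 1 were those of Nr1i2 (0.66 ± 0.26, edgeR adjusted p = 0.528) and Rxrb probe 38711 (0.50 ± 0.23, 0.743). Against the vehicle well of its plate, Nr1i2 was higher in 7 and Rxrb probe 38711 in 8 of 8 pairs. The Rxrb probes 36306 and 51213 were higher in 3 and 5 of 8. On day 7 the smallest were those of Rxra (0.42 ± 0.36, 1) and Ppard (0.33 ± 0.37, 1), and on day 3 those of Nr1i3 and Nr1h3. On day 3 Nr1i3 had 0, 0, 1.19, 0 and 1.45 CPM in co-culture (plates 1, 3, 9, 5 and 7) and 2.26, 0, 0 and 1.18 CPM in monoculture (plates 1, 9, 5 and 7), while vehicle had no count. That is at least 7.78-fold higher against the floor of 3 counts over the group (3.59-fold without plate 7), with an adjusted p of 0.0727, and DESeq2's size factors in edgeR gave 0.0446. Nr1h3 was second on day 3 (2.30 ± 1.22, 0.264), with 10.7 and 11 CPM in the 2 wells of plate 9 and 0 to 2.44 CPM in the others.

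On day 1 Nr1i3 was above its vehicle range with GW7647 in 6 of 8 wells: 2.14, 3.97, 4.79 and 3.58 CPM in co-culture and 3.01, 3.24, 8.52 and 1.59 CPM in monoculture (plates 1, 3, 5 and 7). It was above the vehicle well of its plate and culture in 8 of 8 pairs. The summed level was 2.64 times that of vehicle (95% counting interval 2.01 to 3.5, counting error alone), and the log2 difference was 1.34 ± 0.81 (edgeR adjusted p = 0.91).

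No member was called at a low or middle dose. Of 312 pairs 17 had an unadjusted p under 0.05, and DESeq2 called 1, Nr3c1 with 100 µM gemfibrozil on day 1 (adjusted p = 0.0172). Its edgeR difference was 1.10 ± 0.40 (0.0518), and 1.11 (0.0297) when plate was a block. Gemfibrozil at 100 µM on day 1 called 15% of all probes, GW7647 0.136% on day 1 and 0.0521% on day 3 at 0.1 µM and 0.016% on day 1 at 0.01 µM, and ketoconazole at 10 µM 0.112% on day 1 and 0.0219% on day 7. Each other low or middle dose called 0%. The response of the members did not differ between cultures past the threshold either: 0 of 156 pairs were called, 3 had an unadjusted p under 0.05, DESeq2 called 0, and of all probes 0% were called but for ketoconazole on day 7 (0.0219%).

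**Figure D4:**
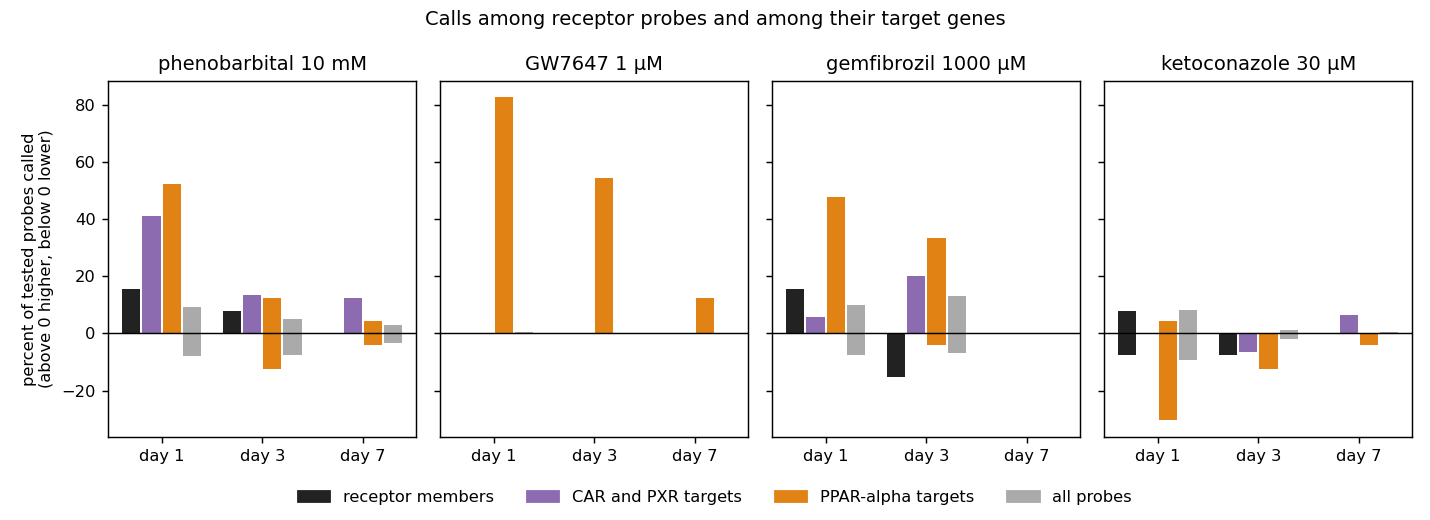
Share of tested probes called higher (above 0) and lower (below 0) at the top dose (y axis, percent) by compound and day, for the receptor probes, the listed CAR and PXR targets, the listed PPAR-alpha targets and all probes. GW7647 called 19 of 23 PPAR-alpha target probes on day 1 and no receptor probe.

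With GW7647 listed PPAR-alpha targets were called while no member was, and with the other compounds this differed. The target lists hold known targets and no member, were chosen with earlier results known and share vehicle wells between compounds. With GW7647, 19 of 23 PPAR-alpha target probes were higher on day 1 and none lower (median log2 difference 2.42, against 0.02 over all probes), 13 of 24 on day 3 (2.14 against 0.09) and 3 of 24 on day 7 (1.34 against -0.03). The shares of all probes called were 0.352%, 0.29% and 0.0219%. The acyl-CoA thioesterase Acot2 rose by 2.43 ± 0.34 (edgeR adjusted p = 1.32e-06) on day 1, while Ppara differed by 0.58 ± 0.43 (0.974). The fatty acid binding protein Fabp1 rose by 5.49 ± 0.75 on day 3 (1.67e-06).

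Gemfibrozil raised 11 of 23 PPAR-alpha target probes on day 1 (median 0.80, against 0.10 over all probes) and 8 of 24 on day 3 with 1 lower (0.75 against 0.27), but 0 of 24 on day 7 (1.02 against -0.02). The shares of all probes called were 17.4%, 20.2% and 0%. Acot2 rose by 3.21 ± 0.35 on day 1 (edgeR adjusted p = 5.29e-10). Phenobarbital raised 12 of 23 on day 1 (0.97 against 0.08), and 3 rose and 3 fell of 24 on day 3, beside 17% and 12.7% of all probes called. Ketoconazole lowered 7 of 23 and raised 1 on day 1 (-0.52 against 0.06), beside 17.3% of all probes called.

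Of CAR and PXR targets, phenobarbital raised 7 of 17 on day 1 (median 0.87), 2 of 15 on day 3 (0.90) and 2 of 16 on day 7 (0.91), with none lower. Of all probes 17%, 12.7% and 6.09% were called, so the day 3 count is at the background share. Cyp2b2, the classical CAR-induced P450, rose by 5.47 ± 1.10 on day 1 (edgeR adjusted p = 0.000176), and the glutathione transferase Gsta2 rose on all 3 days, by 2.52 ± 0.44, 4.53 ± 0.56 and 4.87 ± 0.63. Ketoconazole called 0 of 17, 1 of 15 and 1 of 16, beside 17.3%, 3.18% and 0.518% of all probes. On day 3 Cyp2b2 fell by -5.31 ± 1.57 (0.044). On day 7 Gsta2 rose by 3.32 ± 0.58 (0.000893).

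Over time in vehicle, from day 1 to day 3, 7 of 16 probes for CAR and PXR targets fell in co-culture (median -1.63, against -0.01 over all probes) and 6 of 16 in monoculture (-1.72 against -0.04), none higher. The shares of all probes called were 9.06% and 2.52%. Cyp3a2, a PXR-regulated P450, fell by -5.65 ± 0.61 and -5.39 ± 0.60, and from day 1 to day 7 by -9.60 ± 0.76 and -8.85 ± 0.73. Nr1i2 itself was called higher between days 1 and 7 in monoculture, and Nr1i3 had no count on day 3. Of the glucocorticoid receptor targets 5 of 14 rose from day 1 to day 7 in each culture, and 1 in co-culture and 2 in monoculture fell. Beside this, 22.8% of all probes were called in co-culture and 22.4% in monoculture. The kinase Sgk1 rose by 2.80 ± 0.41 in co-culture and 2.69 ± 0.41 in monoculture, while Nr3c1 was not called.

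For LXR-alpha, 0 of 8 targets were called with GW7647 on day 1 and 0 of 9 on days 3 and 7, beside 0.352%, 0.29% and 0.0219% of all probes. Over days 1 to 7 the desaturase Scd1 fell by -6.20 ± 0.67 in co-culture and -5.08 ± 0.64 in monoculture. Of 10 probes for PPAR-gamma targets, ketoconazole raised 1 and lowered 1 on day 1 (17.3% of all probes called), gemfibrozil lowered 1 on day 1 (17.4%), and phenobarbital raised 1 and lowered 2 on day 3 (12.7%). The lipid droplet protein Cidec fell in these 3 comparisons, by -2.27 ± 0.37 with ketoconazole and -1.25 ± 0.36 with gemfibrozil on day 1 and by -1.80 ± 0.39 with phenobarbital on day 3. The lipolysis inhibitor G0s2 rose in 2 of them, by 1.77 ± 0.44 with ketoconazole and 3.26 ± 0.76 with phenobarbital. Of PGC-1alpha targets 3 of 12 rose with gemfibrozil and 2 of 12 with ketoconazole on day 1, beside 17.4% and 17.3% of all probes called, and Ppargc1a itself was near absent.

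Other nuclear receptors of liver were called in both directions. On day 1 gemfibrozil raised 4 and lowered 4 of 24 probes, ketoconazole raised 3 and lowered 8, and phenobarbital raised 2 and lowered 2, beside 17.4%, 17.3% and 17% of all probes called. The master hepatocyte receptor Hnf4a fell by -1.95 ± 0.44 with ketoconazole on day 1 and by -2.52 ± 0.42 with gemfibrozil on day 3. GW7647 called none on 3 days. Among the receptor coregulators and chaperones, of 22 probes on day 1, gemfibrozil raised 4 and lowered 1, phenobarbital raised 1 and lowered 2, and ketoconazole raised 2 and lowered 3, counts near the background shares above.

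**Figure D5:**
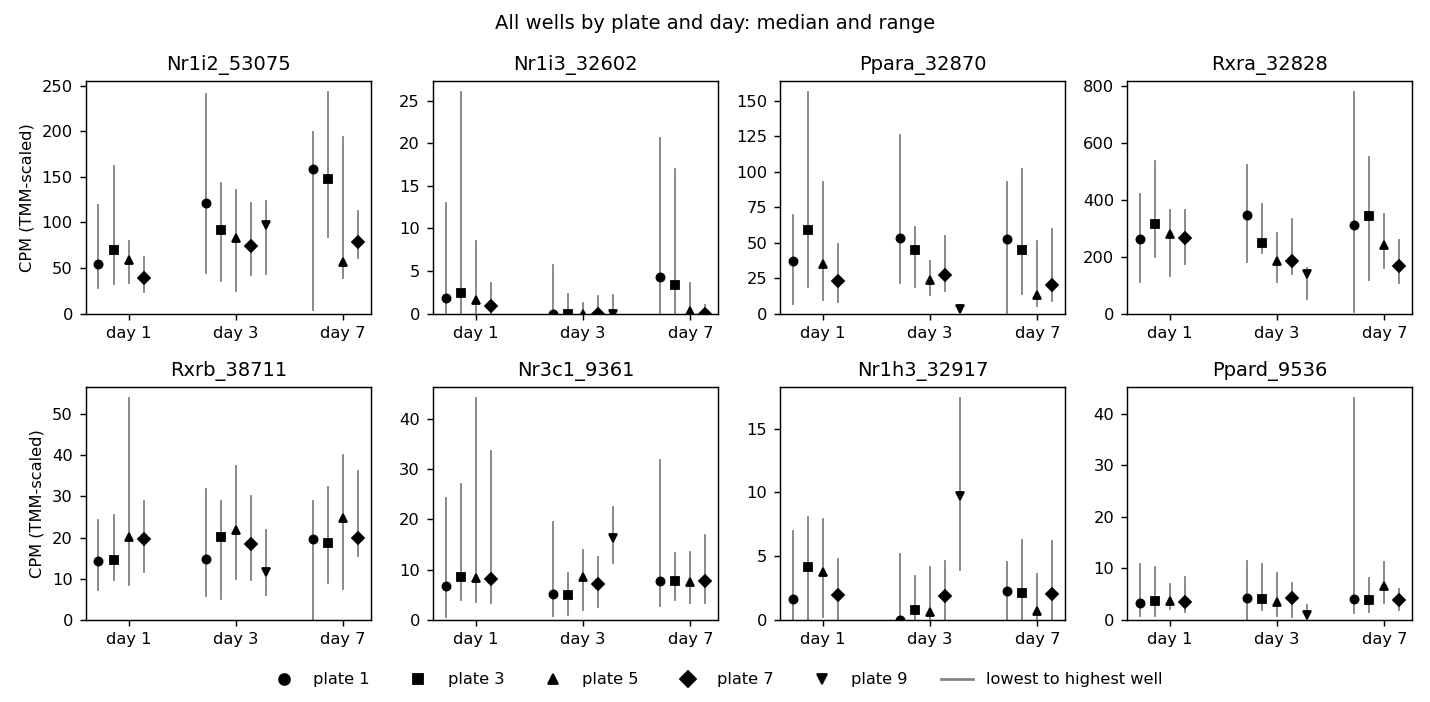
Level of 8 receptor probes (y axis, CPM on scaled libraries) over all wells of a plate and day (x axis), with a point at the median and a line from the lowest to the highest well. On day 7 the medians of Nr1i2, Nr1i3, Ppara and Rxra were higher on plates 1 and 3 than on plates 5 and 7, and plate 9 (day 3) was low in Ppara and high in Nr1h3 and Nr3c1.

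The plate moved with the receptors. On day 7 the median over all wells of plates 1, 3, 5 and 7 was 159, 148, 56.7 and 78.4 CPM for Nr1i2, 4.29, 3.38, 0.356 and 0 CPM for Nr1i3, 52.8, 45.1, 13.3 and 20.2 CPM for Ppara and 310, 343, 242 and 169 CPM for Rxra. Rxrb probe 38711 did not follow this order, with 19.7, 18.8, 24.8 and 20 CPM. Median hepatocyte markers on the same plates were 21100, 20300, 12600 and 13000 CPM, and their part in the receptor levels was not tested. On plate 9 median Nr3c1 was 16.2 CPM against 6.76 CPM on other plates of the same groups, and median Ppard was 0.957 against 3.7 CPM.

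Over the 78 group means each receptor had its own nearest neighbours by Spearman correlation among 12175 probes. Groups share plates, depth and hepatocyte content, so the values are a description. Nr1i2 was nearest to the clock-output factor Dbp (0.859), the carboxylesterase Ces2g (0.851) and Csad (0.803). Nr1i3 was nearest to Marc1 (0.827), complement C3 (0.812) and Abca6 (0.806), and Rxra to Pigr (0.875), Prpf19 (0.821) and Pkp3 (0.82). Ppara was nearest to Xrcc5 (0.737), Nr1h3 to LOC102548286 (0.85), Rxrb probe 38711 to Txndc11 (0.712) and Pparg probe 9538 to Wars (0.651). Nr3c1 and Ppard had no neighbour above 0.623 (Enpp4) and 0.579 (Gata4). Within the set the closest pair of different genes was Rxra with Nr1i3 (0.524), and Nr1h3 with Rxrb probe 51213 was the most opposed (-0.704).

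Over the 78 groups the receptors' means spanned a wide range. Nr1i2 was lowest in monoculture with 10 µM ketoconazole on day 1 (31.1 ± 5.23 CPM, SD, n = 4) and highest in co-culture with 1 mM phenobarbital on day 3 (152 ± 77.8, n = 3). Rxra was lowest in co-culture with 1000 µM gemfibrozil on day 3 (131 ± 39.2, n = 4) and highest in co-culture with 0.1 µM GW7647 on day 7 (374 ± 277, n = 4, with 1 well of 779 CPM). Monoculture with 0.1 µM GW7647 on day 1 held the highest means of Nr1i3 (7.49 ± 4.52 CPM), Ppara (76.7 ± 55.1) and Nr1h3 (5.75 ± 1.67). Pparg probe 9538 was highest in monoculture with 10 mM phenobarbital on day 3 (11.6 ± 5.72, n = 3). These extremes were picked by value and carry no test.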

How the data were processed

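TempO-Seq libraries of 311 wells were analysed from the deposited table of whole-number counts per probe. Per the labels, the assay, sequencing and count table were made by the assay's supplier. Per the submitters' processing notes reads were aligned with Bowtie, with version and genome build not given in the sources used here. Total counts ran from 412414 to 12272575 per library.

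Counts were tested with edgeR 4.0.16 in R 4.3.3 (limma 3.58.1). Probes were filtered with filterByExpr (minimum count 10), libraries were scaled by TMM, and quasi-likelihood tests were fitted over all probes of a day, or over the vehicle wells for time. P-values were adjusted by Benjamini-Hochberg over all tested probes at a threshold of 0.05. Top doses were compared with vehicle as the mean of both cultures. The log2 CPM values used a prior count of 2. DESeq2 1.42.0 and the other settings were alternatives, and the fits were tested on simulated data.

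The members and gene lists were chosen with earlier results of these data known. Every member is named, and of each list up to 3 genes with the smallest p among those past the threshold in a comparison. Libraries of 1 plate carry the same number: their residuals correlated by 0.197, 0.151 and 0.261 on days 1, 3 and 7, against -0.065, -0.051 and -0.087 for different plates. No 2 of 471 pairs of libraries in a group were identical. Of the wells, 33 had a compound label and 3 a dose label (GW7647, day 3, co-culture) that differed from their description, and the description was used. Some listed genes are not reported here.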

Additional observations from a re-analysis of the deposited data

Results flagged for a closer look

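Over 116 pairs of a probe and a group of vehicle or top-dose wells, 12 values stood far from the others of their group by Dixon's criterion. For normally spread values chance alone gives this in about 1 in 20 groups. That share does not hold for low counts, since a single count among wells at 0 is always flagged. This applies to Pparg probe 32510, Nr1h3 in vehicle and Nr1i3 below. In vehicle wells of day 3 the flagged values were Nr1i2 at 174 CPM in co-culture on plate 1, Ppara at 24.2 CPM in monoculture on plate 5, Pparg probe 32510 at 1.24 CPM in monoculture on plate 7 and Nr1h3 at 1.65 CPM in co-culture on plate 3. In vehicle wells of day 7 they were Pparg probe 9538 at 3.48 CPM in monoculture and Nr3c1 at 13.4 CPM in co-culture, both on plate 5. With GW7647 at 1 µM on day 3 the plate 9 wells had Nr1h3 at 10.7 CPM in co-culture and 11 CPM in monoculture. With ketoconazole at 30 µM, Nr1i3 on day 1 was 0.354 CPM in co-culture and 0.121 CPM in monoculture on plate 5, where the other wells had no count. Ppard on day 7 was 11.2 CPM in co-culture on plate 5 and 43.0 CPM in monoculture on plate 1, the well of 412414 counts.

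Pparg probe 9538 moved in opposite directions in the 2 cultures in 2 of 195 pairs of probe and comparison. From day 3 to day 7 in vehicle every plate was higher in monoculture (median difference 1.7 CPM) and lower in co-culture (-2.91 CPM), a difference that was not tested. With GW7647 at 1 µM on day 3 every plate that also held a vehicle well was higher in monoculture (1.95 CPM) and lower in co-culture (-3.38 CPM), and the test of that difference gave an adjusted p of 1 (edgeR). Plate 3 had no such monoculture well. Both pairs use the same vehicle wells of day 3, so they are not separate findings. With so few plates, opposite moves in some of 195 pairs can arise by chance.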

How the results depend on the processing

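Of 113 recomputed counts of called members, 88 stayed equal or within 1.5 times. These include counts of 0 that stayed at 0, in nearly all settings for GW7647 and in all for the differences between cultures. Such counts say little about how firm the calls are, and equal counts need not be of the same members. Phenobarbital's 3 calls became 6 with DESeq2, 1 with no filter on low counts and 0 in co-culture alone, and 0 to 3 on leaving out single plates (plate 9, with no phenobarbital well, left 3). GW7647's 0 became 1 with median-of-ratios scaling. Gemfibrozil's 4 became 0 when only the groups compared were fitted, and 0 to 4 on leaving out single plates. Ketoconazole's 3 became 5 with plate as a block. Over time, monoculture's 2 calls became 1 with the number of detected probes as covariate, 0 with only the groups compared and 0 to 1 without single plates. Co-culture's 1 became 6 with DESeq2, 0 with that covariate, 4 with plate as a block, and 0 to 1 without single plates. With plate as a block all 13 calls of the study were shared and 8 were added, to 21. DESeq2 made 26 calls, 13 of them shared. Rxrb probe 51213 with ketoconazole on day 7 reversed, from 1.03 to -0.26, with counts summed per gene, which merges 3 probes. The cause was not tested for the other changes. The calls of Nr1i3 (day 1) and Nr1i2 (day 3) with ketoconazole held in each setting that could test them. Every other call was lost on leaving out at least 1 plate, which also leaves fewer wells. Over the settings the log2 difference shrank for some, as for Rxrb probe 38711 with gemfibrozil on day 1 (0.39 to 1.06). For others it stayed similar, as for Pparg probe 9538 with phenobarbital on day 3 (2.52 to 2.9). The folds of Nr1i3 without single plates were added after seeing the data.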
